A study of Mus musculus with 13 samples.

Results

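The inner root sheath (IRS) keratins described here are the 7 genes Krt25, Krt26, Krt27, Krt28, Krt71, Krt72 and Krt73, taken by symbol from a table of 27998 genes. They were measured in 13 single-cell RNA-seq libraries from the upper back of C57BL/6 mice. Whole back skin was used at E14.5 and E16.5 (E, embryonic day), and at P0 (P, postnatal day) the epidermis was used after overnight digestion and removal of the dermis, which leaves hair follicle cells in the sheet. The sample titles give P0, whereas the study's methods also write this stage with a late embryonic day, so birth is not certain. At each age there were 2 libraries from wild type (WT) and 2 from Grhl3-/- littermates, 1 male and 1 female of each genotype by the study's methods, and all Grhl3-/- embryos had spina bifida. Grhl3 encodes a transcription factor of the epidermis and no other engineered allele is named for any group. A further P0 WT library, whose title names an earlier version of the 10x Chromium chemistry (v1) although its protocol text names v2, is given as a single sample and enters no test. The values are unique molecular identifiers (UMIs), each standing for 1 captured transcript molecule read near its 3′ end, so levels of different genes were compared as UMIs per 1000000 UMIs (CPM) without division by length.

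The IRS is the tube of cells that surrounds and moulds the growing hair shaft. Its cells fill with keratin filaments, in which a type I keratin pairs with a type II keratin, and are then hardened by trichohyalin and by enzymes that deiminate and cross-link protein. Krt25, Krt26, Krt27 and Krt28 encode type I keratins and Krt71, Krt72 and Krt73 type II keratins. In the mature sheath K25, K27, K28 and K71 are known from all 3 layers, named Henle, Huxley and cuticle, whereas K26, K72 and K73 are known from the cuticle.

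The 2 types lie in separate clusters. On chromosome 11 of GRCm38 the 4 type I genes span 59.4 kb in the order Krt25 (chr11:99315516-99322951), Krt26 (chr11:99328550-99337966), Krt27 (chr11:99345565-99351104) and Krt28 (chr11:99364872-99374903). On chromosome 15 the type II genes span 68.4 kb in the order Krt71 (chr15:101733949-101743109), Krt72 (chr15:101776172-101786460) and Krt73 (chr15:101793308-101802346). All 7 are on the minus strand, with 8 exons in each type I gene and 9 in each type II gene. Krt74, a further IRS keratin gene, lies between Krt71 and Krt72 and had 0 UMIs in the kept cells.

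The promoters of the 5 members with readable levels are shown because each of 2 short motifs was found in 4 of the 5; Krt25, Krt71 and Krt73 hold both. The windows are 100 bases long, run 5′ to 3′ on the gene's own strand, and come from RefSeq for GRCm38.p6. Capitals mark AGATAA, a letter match to the GATA factor motif, and TAATTA, a letter match to a homeobox motif that reads the same on both strands.
Krt25, chr11:99323072-99323171, minus strand: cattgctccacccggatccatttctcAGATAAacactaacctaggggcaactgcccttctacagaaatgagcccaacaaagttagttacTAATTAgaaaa
Krt27, chr11:99351239-99351338, minus strand: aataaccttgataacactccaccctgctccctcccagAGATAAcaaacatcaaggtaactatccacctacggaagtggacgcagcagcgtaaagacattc
Krt28, chr11:99375024-99375123, minus strand: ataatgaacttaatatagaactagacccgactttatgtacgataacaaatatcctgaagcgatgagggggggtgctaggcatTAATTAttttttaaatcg
Krt71, chr15:101743243-101743342, minus strand: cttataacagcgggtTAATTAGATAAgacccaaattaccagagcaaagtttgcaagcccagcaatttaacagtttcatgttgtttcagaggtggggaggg
Krt73, chr15:101802481-101802580, minus strand: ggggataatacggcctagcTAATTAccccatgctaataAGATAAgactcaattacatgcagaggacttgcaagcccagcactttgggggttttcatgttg

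AGATAA was searched on both strands from 250 bases before to 50 bases after the start site. It was found in 4 of the 7 members, first base at -194 in Krt25, -183 in Krt27, -225 in Krt71 and -182 in Krt73, and in 11.2% of 32851 promoters. TAATTA was found in 4 of 7, at -131 in Krt25, -138 in Krt28, -230 in Krt71 and -201 in Krt73, against 5.29% of promoters. In Krt71 the 2 motifs overlap. TATAAA, the TATA box letters, was found in 7 of 7 against 13.6% of promoters. On the gene's strand its first base was at -30 in Krt25, Krt26, Krt28 and Krt73, at -40 in Krt71 and at -15 in Krt27, with 1 further match upstream in Krt26, whereas the match in Krt72 was at -203 on the other strand. CTTTGA, letters of the LEF/TCF motif, was found in Krt28 alone against 16%. Krt71 and Krt73 share a run of 14 bases, ttgcaagcccagca, whose first base is at -196 in Krt71 and at -154 in Krt73. Each of these is a match of letters only.

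The libraries held between 49245953 and 107038146 UMIs, and 86507 cells passed the filters. Pairs of the 12 libraries without the v1 title shared 52 to 131 cell barcodes, at most 1.763% of the smaller library. The library of the v1 title has cell barcodes of another length and was not compared. Grhl3 itself was measured first. At P0 it stood at 7.0 and 8.29 CPM in the WT and at 2.42 and 2.81 CPM in the Grhl3-/- libraries, and at E16.5 at 4.03 and 6.65 against 1.47 and 0.693 CPM. At E14.5 the 2 genotypes overlapped, with 4.42 and 7.30 against 4.08 and 9.89 CPM, so Grhl3 tags did not separate the libraries labelled Grhl3-/- at that age. The deleted part of the gene is not given in the sources used here, and 3′ tags outside it need not check the label.

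In both genotypes the IRS keratins were close to absent at E14.5, scarce at E16.5 and abundant at P0. All 7 together had 26 and 36 UMIs in the E14.5 WT libraries, 89 and 85 at E16.5, and 6832 and 6641 at P0. The Grhl3-/- libraries had 23 and 46, then 54 and 138, then 18299 and 15039. In CPM the sum was 0.524 and 0.607 in the WT at E14.5, 1.26 and 1.48 at E16.5, and 101.9 and 85.6 at P0. The P0 WT library of the v1 title stood at 57.1 CPM, below both other P0 WT libraries. P0 samples lack the dermis, so the rise in whole libraries from E16.5 to P0 was given as values, and its test was made within follicle cells. Those cells still came from whole skin at E16.5 and from epidermis digested overnight at P0. They also came from different litters, passed different gene limits and were named at each age separately. None of these can be told apart from age.

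**Figure D1:**
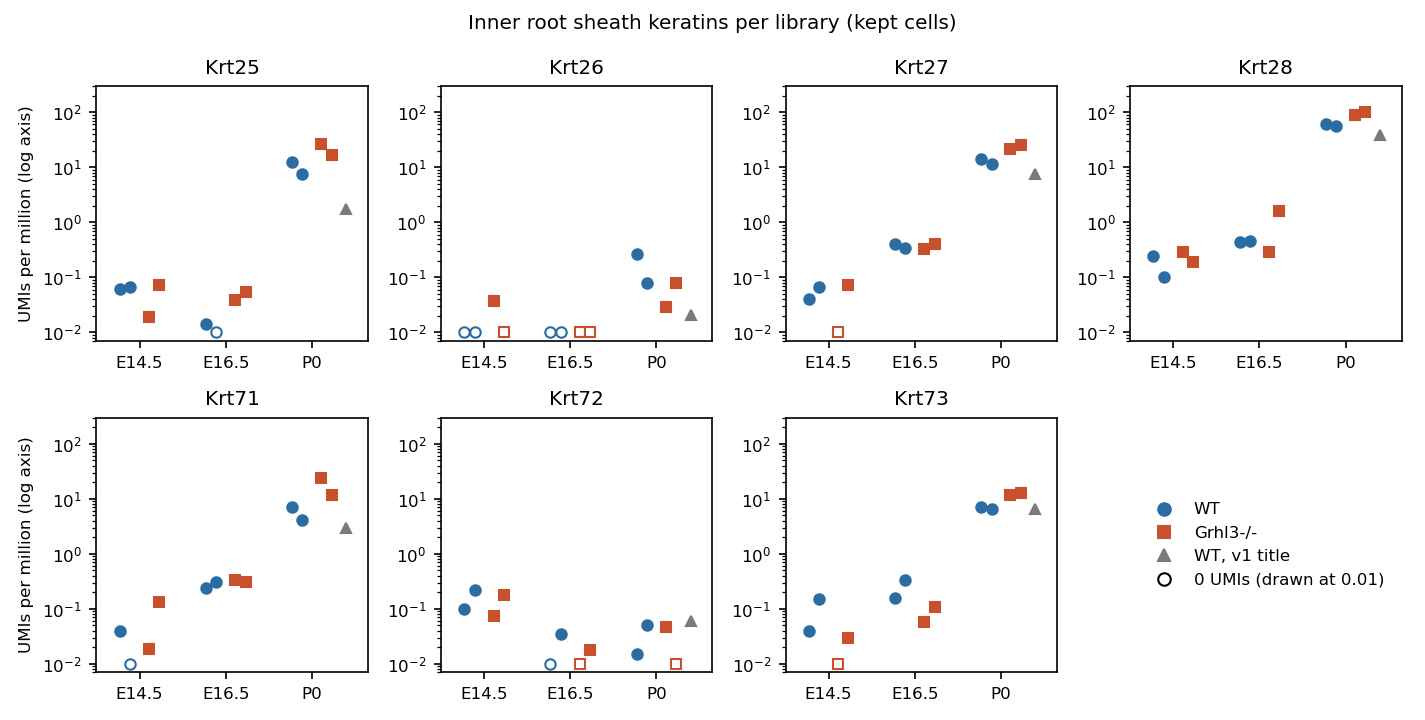
Level of each IRS keratin in every library, as CPM on a log axis, against age; circles are WT, squares Grhl3-/-, the triangle the WT library of the v1 title, and open symbols libraries with 0 UMIs drawn at 0.01. Krt25, Krt27, Krt28, Krt71 and Krt73 were all above 1 CPM in every P0 library, while Krt26 and Krt72 stayed below 0.3 CPM throughout.

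Krt28 was the most abundant member at P0. In the WT it stood at 61.5 and 55.9 CPM, a mean of 58.7 ± 3.93 (SD, n = 2). Krt27 followed at 13.9 and 11.7 CPM, and Krt25 at 12.2 and 7.42 CPM. Those 2 overlapped across the libraries, although within each of the 2 Krt27 was above Krt25, at 929 and 907 against 820 and 576 UMIs. Their order was not tested. The type II members came next, with Krt73 at 7.07 and 6.39 CPM and Krt71 at 7.03 and 4.06 CPM, again overlapping. Krt26 had 18 and 6 UMIs and Krt72 had 1 and 4 UMIs in the same libraries, too few to describe where they were used. The summed type I members thus outnumbered the type II members in every P0 library, with Krt28 alone giving 60.3% and 65.3% of all 7-keratin UMIs in the WT.

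From E14.5 to E16.5 in WT skin Krt27 and Krt71 rose. The make-up of the skin moved with them: cells like those of the interfollicular epidermis (IFE) went from 348 and 515 to 1242 and 1482 per WT library, 6 of 10 keratins of the outer root sheath and companion layer were higher (Krt5, Krt14, Krt15, Krt16, Krt17 and Krt79, list median log2 change 3.54 against 0.02 over all genes tested), and the part of this in the members' rise was not tested. Krt27 went from 2 and 4 UMIs to 29 and 20, and Krt71 from 2 and 0 UMIs to 17 and 18. On the log2 scale the change was 2.90 (SE 0.54) for Krt27 and 3.90 (SE 1.11) for Krt71, with edgeR adjusted p of 0.00529 and 0.0317. Thus 2 of the 6 members tested were higher, where 12.8% of all genes tested were higher and 23.3% changed in either direction. The 6 passed the low-count filter in a fit that holds the P0 libraries; with only these ages in the fit 3 were tested, and Krt27 and Krt71 passed. Krt28 had 12 and 6 UMIs at E14.5 and 31 and 26 at E16.5, and missed the threshold (log2 change 1.56, SE 0.82, edgeR adjusted p = 0.197). Krt73 had 2 and 9 UMIs and then 11 and 19 (1.38, SE 0.58, adjusted p = 0.117 by edgeR). Leaving out any 1 of the 4 WT libraries left only Krt27 past the threshold, and moved Krt71 from 2.83 without E14.5 replicate 2 to 7.26 without E14.5 replicate 1, the last against a lone library at 0 UMIs.

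Krt72 ran the other way in counts. It had 5 and 13 UMIs in the E14.5 WT libraries and 0 and 2 at E16.5, and the difference did not pass (log2 change -3.07, SE 1.25, edgeR adjusted p = 0.106). All 5 Krt72 UMIs of the first E14.5 WT library were in IFE-like cells. No follicle-like class was found at E14.5.

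Cells were clustered at each age without the 7 members and named from marker lists. Follicle markers such as Lhx2, Shh, Msx2, Hoxc13 and Krt17 defined hair follicle (HF)-like clusters, which held 155 to 326 cells per library at E16.5 and 2647 to 4253 in the tested P0 libraries. The members' UMIs were spread unequally over these clusters at E16.5. Over the 4 libraries Krt27 had 73 of its 88 UMIs (83.0%) and Krt28 had 113 of 161 (70.2%) in the 978 HF-like cells. Krt71 had 15 of 69 UMIs there, and 43 of 69 (62.3%) in a pair of IFE-like clusters led by Krt14, which held more cells (2157). Its level in the WT libraries overlapped between both places, at 1.47 and 1.24 CPM in HF-like cells and 1.64 and 1.17 CPM in the Krt14 clusters. In the Grhl3-/- libraries it was 1.46 and 3.84 CPM in HF-like cells and 4.74 and 4.26 CPM in the Krt14 clusters, where the genotypes did not overlap; these values rest on 2 to 12 UMIs each and were not tested. Krt73 had 13 of 39 UMIs in HF-like cells and 25 of 39 (64.1%) in a cluster of 627 cells led by Krt79, a keratin of the upper follicle. That cluster was grouped with the IFE-like cells by its marker score, with 9 of 11 IFE markers raised, and is called here by its leading gene. Krt25 had 6 UMIs in all 4 libraries and 0 of them in HF-like cells.

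Within WT HF-like cells Krt25, Krt27, Krt28, Krt71 and Krt73 rose from E16.5 to P0. Of these only Krt27 and Krt28 passed the low-count filter in the E16.5 libraries alone. The other 3 entered through the P0 libraries, where they are high, so the number that rose is partly fixed by the filter. Krt28 went from 8.11 and 5.36 CPM to 129.4 and 126.5 CPM, and Krt27 from 8.11 and 7.42 to 28.7 and 25.4 CPM. Neither gene's ages overlapped, and the log2 changes were 4.35 (SE 0.39) for Krt28 and 1.92 (SE 0.20) for Krt27, with edgeR adjusted p of 3.02e-06 and 8.81e-06. Krt25, at 0 UMIs in both E16.5 libraries, reached 25.8 and 15.1 CPM, at least 35-fold higher when 3 UMIs over the group are taken as the limit of a count of 0. The type II members rose too. Krt71 went from 1.47 and 1.24 CPM to 13.5 and 7.15 CPM (log2 change 3.03, SE 0.77, edgeR adjusted p = 0.00651), and Krt73 from 0.737 and 4.12 CPM to 10.7 and 10.3 CPM (2.28, SE 0.42, adjusted p = 0.000788 by edgeR). The 4.12 CPM of Krt73 in E16.5 WT replicate 2 was 10 UMIs, 9 of them in 1 cell. Of all genes tested 22.6% were higher at P0 and 43.0% changed. The members' count is not read against these shares. Without E16.5 WT replicate 1 or 2 the adjusted p of Krt71 was 0.0623 or 0.0656; its E16.5 values rest on 4 and 3 UMIs. The change of Krt73 was 1.52 without E16.5 replicate 1 and 3.94 without E16.5 replicate 2, past the threshold in both.

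The same 5 members rose in Grhl3-/- HF-like cells, where 16.7% of all genes were higher and 26.8% changed. Krt25, Krt71 and Krt73 again entered through the P0 libraries, so nothing is read from that count either. Krt27 went from 10.2 and 12.2 CPM to 36.0 and 39.7 CPM, and Krt28 from 8.01 and 42.9 to 161.3 and 163.5 CPM. Their log2 changes were 2.06 (SE 0.20) and 2.93 (SE 0.34), with edgeR adjusted p of 1.49e-05 and 4.47e-05. Krt71 reached 38.1 and 16.8 CPM from 1.46 and 3.84 (3.63, SE 0.69, adjusted p = 0.00188), and Krt73 reached 10.8 and 12.5 CPM from 0 and 0.641 (5.37, SE 0.76, adjusted p = 0.000236). Krt25 was again at 0 UMIs at E16.5 and reached 34.1 and 23.8 CPM, at least 28.3-fold higher. The size of some changes rested on single E16.5 libraries: without replicate 1 and without replicate 2 of E16.5 Grhl3-/-, that of Krt28 was 2.15 and 4.60, that of Krt71 3.06 and 4.49 and that of Krt73 4.40 and 11.15, the last against a lone library at 0 UMIs, so that it depends on the prior count and is no bound; without P0 replicate 1 that of Krt71 was 2.80. All these stayed past the threshold. In this comparison the centring of all genes mattered, with 2253 genes higher and 1358 lower by TMM scaling against 1655 and 1637 by relative log expression. The median log2 change of all genes was 0.11 by the first and 0.01 by the second, and that of the 5 members 3.63 and 3.54.

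Other genes of the sheath and follicle were counted over the same step, where 22.6% of all genes tested were higher and 43.0% changed. Tchh, Gata3, Cux1, Hoxc13, Msx2, Dlx3, Sox9, Lhx2, Krt35, Krt75 and Krt17 were also among the markers that named the HF-like clusters at each age. Krt5, Krt14, Krt15 and Krt79 were markers of the IFE-like or of an upper follicle-like class. The counts that hold any of these genes are thus not independent of the choice of cells. Of 7 tested genes for IRS structure and cross-linking, 1 was higher in WT HF-like cells at P0 (Ctsl, a lysosomal protease) and 0 lower, and the median log2 change was 1.05 against 0.05 over all genes tested. Trichohyalin, the peptidylarginine deiminases Padi1 and Padi3 and the transglutaminases Tgm1 and Tgm3 were among the 6 that missed the threshold. Of 16 follicle transcription factors 12 were higher, among them Gata3, Cux1, Hoxc13, Msx2, Dlx3 and Foxn1, and 1 was lower (Trps1), with a median of 0.91. Of 5 hair shaft keratins 4 were higher (Krt32, Krt33a, Krt34 and Krt35), and of 9 keratins of the outer root sheath and companion layer 3 were higher (Krt75, Krt6a and Krt79) and 1 lower (Krt17).

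At P0 the IRS keratins were concentrated in few cells. Cells with 10 or more UMIs of the 7 keratins numbered 124 of 6765 (1.83%, exact 95% binomial interval 1.53% to 2.18%) and 180 of 6589 (2.73%, 2.35% to 3.16%) in the WT libraries. These cells held 43.3% and 51.6% of all UMIs of the 7 keratins, with a median of 14 per cell in each. In the first WT library 1 cell carried 467 of them. At E14.5 there was no such cell in any library and at E16.5 none in 3 of 4, where a count of 0 allows a share of up to 0.0345% to 0.0570% by the number of cells. E16.5 Grhl3-/- replicate 2 had 3 of 6494, with 34, 15 and 14 UMIs, mostly of Krt28. The intervals and limits cover counting error only.

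The richest P0 cluster was 1 of the HF-like clusters, led by Hopx, Taf13 and Pcdh7. It held 137 and 140 cells of the WT libraries (2.03% and 2.12%) and 344 and 304 cells of the Grhl3-/- libraries (3.76% and 4.17%), and 33.1% of the 7-keratin UMIs of the 4 libraries. Its summed level was 1937 and 1340 CPM in the WT and 1810 and 1250 CPM in the Grhl3-/- libraries, so the genotypes overlapped there. In this cluster Krt28 was found in 93.4% and 87.1% of WT cells, Krt25 in 38.0% and 37.9%, Krt73 in 26.3% and 25% and Krt71 in 13.9% and 15%. Krt71 was found in 40.7% and 26% of the Grhl3-/- cells, and the genotypes did not overlap, at 451 and 172 CPM against 169 and 52.5 CPM in the WT. The shares of cells did not overlap for Krt25 either, at 50% and 38.8% in Grhl3-/-. Nor did those for Krt27, at 54.9% and 53.3% against 48.9% and 47.1% in the WT. These shares were not thinned. The median depth of the cluster's cells was 9477.5 and 9525.5 UMIs in Grhl3-/- and 6376 and 8963 in the WT. All 5 readable members were thus present in the cluster, although most of its cells in each library had no Krt71 UMI.

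Other clusters held the type I members nearly without the type II members. In the cluster led by Msx1, a homeobox gene of the hair matrix, Krt28 was found in 85.5% and 84.4% of WT cells and in 87.9% and 93.3% of Grhl3-/- cells, but Krt71 in 2.29%, 1.90%, 5.06% and 3.54% of cells. Krt28 and Krt27 gave 77.1% and 16.6% of its 7-keratin UMIs over the 4 libraries, against 0.685% for Krt71 and 0.251% for Krt73. The cluster led by Krt35, a keratin of the hair shaft, had the same make-up, with 75.4% Krt28, 16.6% Krt27, 1.25% Krt71 and 0.441% Krt73. These clusters stood at 499 and 503 CPM, below the 1559 CPM of the Hopx cluster.

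Type II members took larger shares in other clusters. In the HF-like cluster led by Sfrp1, Tbx1 and Krtap17-1, Krt71 gave 57.1% and 58.7% of the 7-keratin UMIs in the WT libraries and 32.3% and 26.4% in the Grhl3-/- libraries, at a low summed level of 31.9, 29.5, 43.9 and 46.2 CPM. The unnamed cluster led by Krt79, with 889 cells, had Krt73 in 14.8% and 12.2% of WT cells and in 20.6% and 24.6% of Grhl3-/- cells. Krt73 gave 35.2% and 35.7% of its UMIs of the 7 keratins in the WT. Grhl3-/- replicate 1 stood apart in that cluster, at a summed level of 755 CPM against 285 in the other Grhl3-/- library and 136 and 99.2 in the WT, and at 257 CPM of Krt25 against 62.1, 10.7 and 10.7. Krt25 gave 34.1% and 21.8% of the 7-keratin UMIs there in the Grhl3-/- and 7.85% and 10.8% in the WT libraries. It was found in 11.2% and 6.28% of the cluster's Grhl3-/- cells and in 5.38% and 2.86% of its WT cells. A single cell held up to 192 and 148 Krt25 UMIs in Grhl3-/- and up to 6 and 28 in the WT, so single cells weigh on these levels and shares.

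**Figure D2:**
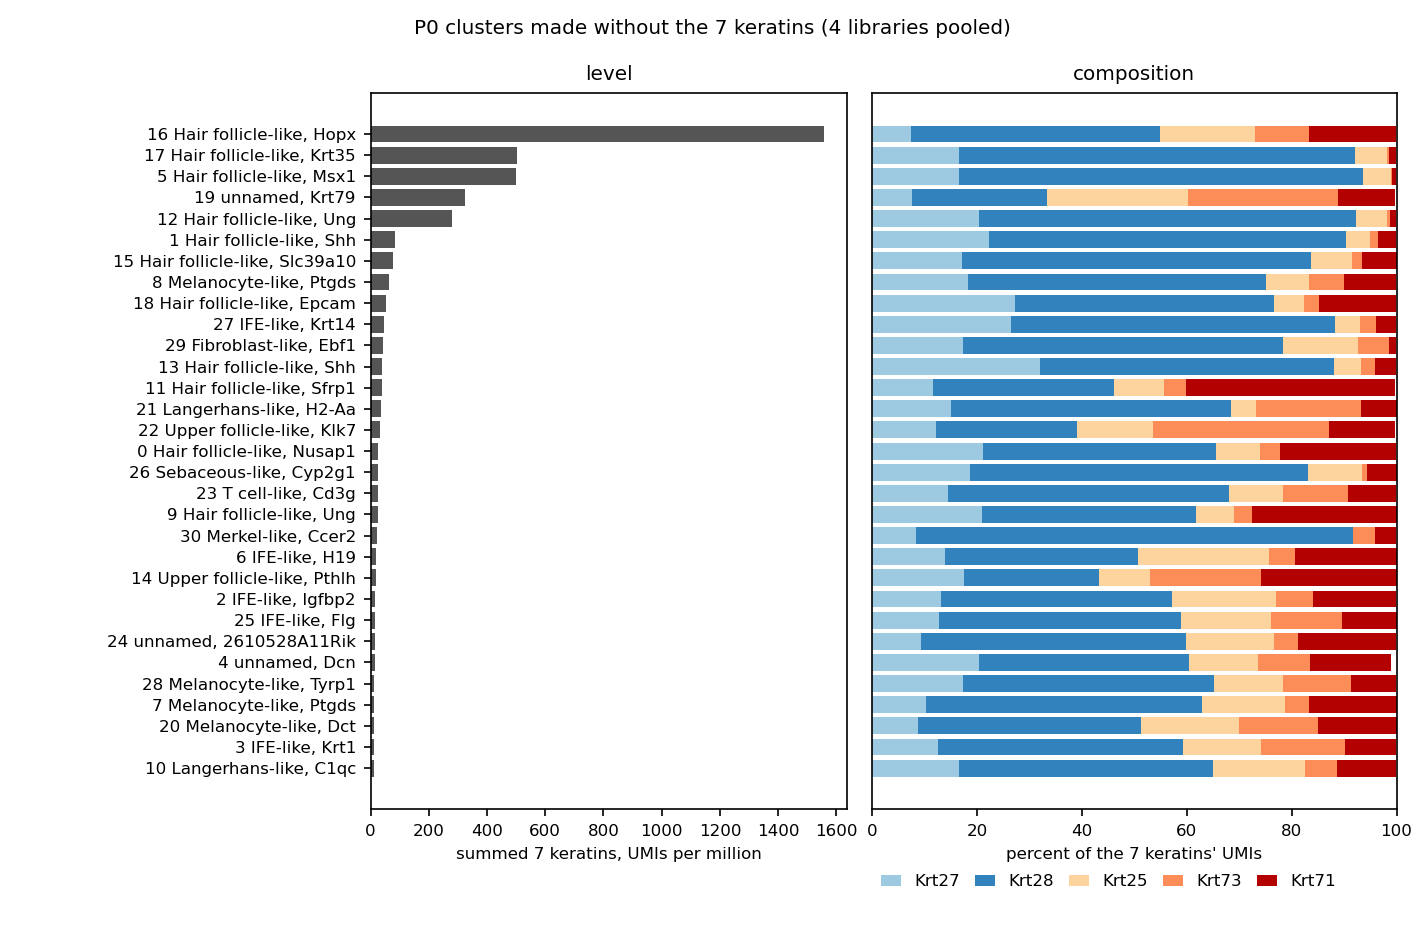
P0 clusters made without the 7 keratins, named by class and leading gene, over the WT and Grhl3-/- libraries pooled: the left bars give the summed level in CPM and the right bars the share of each keratin in percent. The Hopx cluster, at 1559 CPM, holds all 5 members, the Msx1 and Krt35 clusters are nearly all Krt28 and Krt27, and the Krt79 cluster has the largest Krt73 share among the 5 highest clusters.

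Pairs of members within HF-like cells showed the same arrangement when 3000 UMIs were drawn from each cell. Among cells with a Krt25 UMI, 76.4% and 76.2% in the WT and 70.4% and 75.0% in the Grhl3-/- libraries also had Krt28. Krt73 cells also had Krt28 in 68.4%, 55.9%, 80.3% and 82.0%, and Krt25 in 39.5%, 35.3%, 43.7% and 45.9%. Krt27 cells had Krt28 in 55.7% to 65.2%, and Krt71 in 1.68% to 6.77%. Krt71 differed between genotypes in its company. In the WT 23.9% and 24.5% of Krt71 cells also had Krt28, little above the 19.6% and 17.6% of all HF-like cells with Krt28, whereas in the Grhl3-/- libraries 58.6% and 60.4% did, against 25.5% and 28.4% of all HF-like cells. This contrast has 2 libraries a side and was given as a description.

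**Figure D3:**
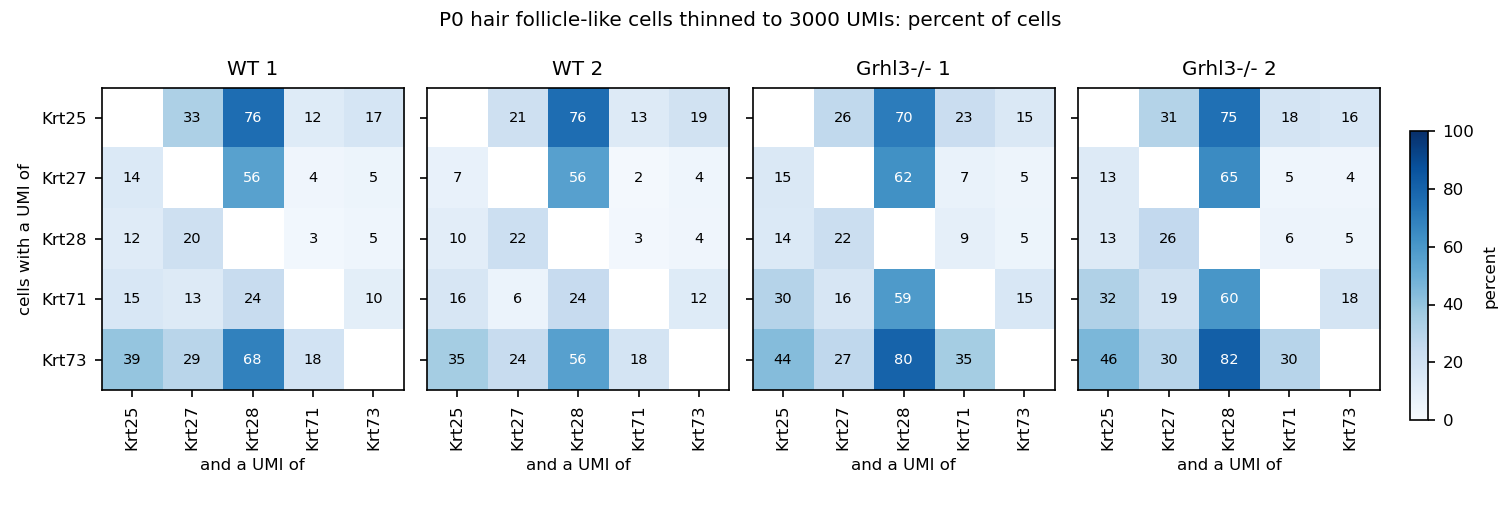
Co-detection at P0 in HF-like cells thinned to 3000 UMIs, 1 panel per library: each square gives the percent of cells with a UMI of the row's keratin that also had a UMI of the column's keratin. Krt28 is the most frequent companion of every other keratin, but of Krt71 at 23.9% and 24.5% in the WT panels and at 58.6% and 60.4% in the Grhl3-/- panels.

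Free RNA gives some UMIs in cells that do not use a gene, so detection was set beside melanocyte-like cells, which should lack these keratins. At 3000 UMIs a cell Krt28 was found in 19.6%, 17.6%, 25.5% and 28.4% of HF-like cells (WT, then Grhl3-/-) against 3.41%, 2.12%, 4.12% and 4.74% of melanocyte-like cells. For Krt71 the shares were 2.43%, 1.85%, 3.81% and 2.71% against 0.948%, 0.505%, 1.06% and 1.37%. Each of the 5 readable members was above that background in every library, but Krt71 by the narrowest ratio. Unthinned median depths were 7522, 9550, 10430 and 11338 UMIs in HF-like cells and 6421, 7020, 7776 and 9132 in melanocyte-like cells. Of the 1073 cells with 10 or more UMIs of the 7 keratins, 973 (90.7%) were HF-like, 55 unnamed, 20 melanocyte-like and 10 IFE-like. Of the melanocyte-like cells 18 were in 1 cluster of 1372 cells, whose median depth was 12900 UMIs. Doublets were not called, and their part was not tested.

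Across single HF-like cells Krt27 with Krt28 (Pearson r 0.446 to 0.530 over the 4 libraries), Krt25 with Krt73 (0.424 to 0.509) and Krt25 with Krt28 (0.417 to 0.463) were among the closer pairs in every library. Krt25 with Krt71 was at 0.253 and 0.263 in the WT but at 0.510 and 0.477 in the Grhl3-/- libraries. By Spearman's rho it was 0.233 and 0.180 there, below Krt25 with Krt28 (0.378 and 0.353). By Pearson r the weakest pairs in the WT were Krt27 with Krt71 (0.0789 and 0.0707) and Krt28 with Krt71 (0.0491 and 0.0873). In Grhl3-/- they were Krt27 with Krt71 (0.162 and 0.149) and Krt27 with Krt73 (0.188 and 0.160), and Krt28 with Krt71 was at 0.312 and 0.237. By Pearson r the type I member Krt25 was nearer to the type II member Krt73 than to Krt27 (0.296 to 0.362) in every library. By Spearman's rho this order held in the WT libraries (0.276 and 0.314 against 0.267 and 0.249) and turned in the Grhl3-/- libraries (0.245 and 0.221 against 0.294 and 0.243). The points are 2647 to 4253 cells of 1 library each, which share its depth, and the order of pairs also moved with thinning. Krt27 with Krt28 then stood at 0.288 to 0.313 and Krt25 with Krt71 at 0.399 and 0.343 in the Grhl3-/- libraries, whereas in WT replicate 1 Krt71 with Krt73 went from 0.152 to 0.208.

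The cells with 10 or more UMIs fell into unequal kinds of make-up. Krt25, Krt71 and Krt73 together gave under 20% of the UMIs of the 7 keratins in 57.3% and 67.2% of such cells in the WT libraries and in 50.5% and 64.8% in the Grhl3-/- libraries. They gave 60% or more in 15 of 124 and 15 of 180 such cells of the WT and in 63 of 386 and 46 of 383 of the Grhl3-/- libraries. As shares of such cells the genotypes overlapped. Other genes differed between these low and high cells. Krt79 stood at 357.3 and 428.4 CPM in the low and 9379 and 7351 CPM in the high cells of the WT, and at 88.8 and 84.1 against 2843 and 2674 CPM in the Grhl3-/- libraries. Tchh, which encodes trichohyalin of the IRS, stood at 5.51 and 0.571 against 23.2 and 23.2 CPM in the WT, on 5 and 1 against 6 and 5 UMIs. All kept WT cells stood at 15.1 and 11.9 CPM. In Grhl3-/- it was at 1.36 and 1.79 against 99.1 and 81.1 CPM. Of the same list Tgm1 and Padi3 were also higher in the high cells of every library, Padi3 on 5, 1, 23 and 4 UMIs there. Padi1, Tgm3 and Casp14 were higher there in both WT libraries. Padi1 and Padi4 were lower in the high cells of both Grhl3-/- libraries, Casp14 in those of replicate 1 and Tgm3 in those of replicate 2, on few UMIs. Ctsl was lower in the high cells except in WT replicate 1, at 379.5, 241.2, 93.9 and 146.9 against 329.8, 318.7, 143.4 and 167.7 CPM (WT, then Grhl3-/-). Msx1 ran the other way, at 89.3 and 125.7 CPM in the low and at 3.87 and 0 CPM in the high cells of the WT, as did Hoxc13, a homeobox gene of the hair matrix and shaft, at 67.3 and 77.1 against 7.75 and 18.6 CPM. The cells were chosen on the 7 keratins and the comparison carries no test.

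**Figure D4:**
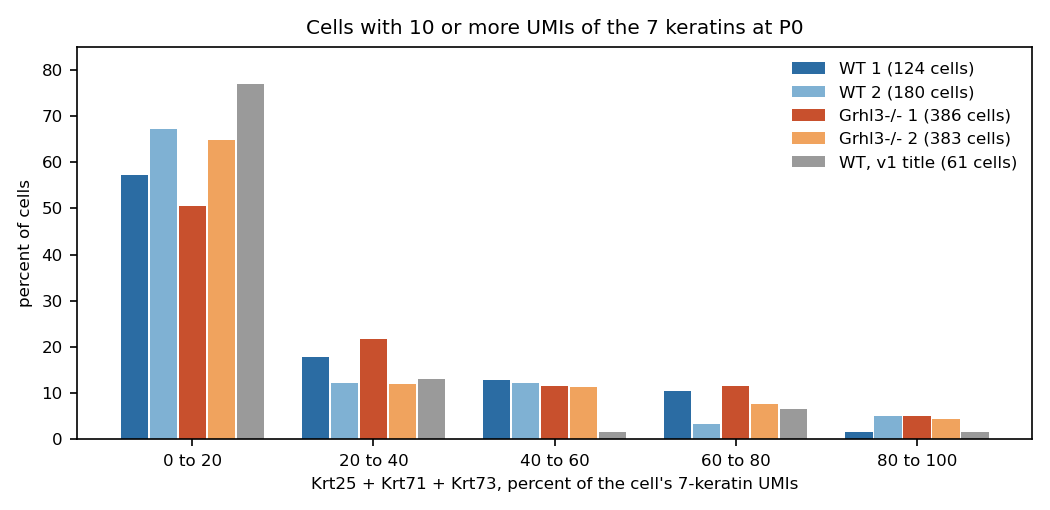
P0 cells with 10 or more UMIs of the 7 keratins, binned by the percent of those UMIs that come from Krt25, Krt71 and Krt73, as percent of such cells in each library. The lowest bin is the largest in every library, from 50.5% in Grhl3-/- replicate 1 to 77.0% in the WT library of the v1 title.

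Among the genes whose level followed the summed members most closely across P0 HF-like cells were Prnp (the prion protein gene, median r over 4 libraries 0.522), Dlx3 (a homeobox gene of the follicle, 0.518), Hopx (0.482), Cldn10 (0.462), Ccnd2 (0.459), Dbi (0.434), Arg2 (0.434), Cux1 (0.432) and Mt4 (0.423), of 9735 genes ranked. In the WT library of the v1 title the same genes had r between 0.187 and 0.425, with Dlx3 the highest of them. These are correlations across cells that share depth, given as a description.

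At P0 the Grhl3-/- libraries held more IRS keratin UMIs than the WT libraries. The sum was 173.3 and 166.6 CPM against 101.9 and 85.6, and the genotypes did not overlap for Krt25, Krt27, Krt28, Krt71 or Krt73. Of 6 members tested 4 were higher, where 17.4% of all genes were higher and 34.1% changed. More cells of a type and more RNA per cell cannot be told apart in such sums over a whole library.

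Among the type I members Krt25 and Krt27 rose. Krt25 stood at 26.7 and 16.8 CPM in the Grhl3-/- and at 12.2 and 7.42 CPM in the WT libraries (log2 change 1.24, SE 0.30, edgeR adjusted p = 0.0112). Krt27 stood at 21.5 and 25.1 against 13.9 and 11.7 CPM (0.96, SE 0.24, edgeR adjusted p = 0.0127). Krt28 had the largest difference in CPM, 89.7 and 100.2 against 61.5 and 55.9, but did not pass (0.79, SE 0.35, edgeR adjusted p = 0.115). With only the P0 groups in the fit it did (0.80, adjusted p = 0.0069), as did Krt25, Krt27, Krt71 and Krt73, 5 of the 5 then tested. Krt26 was not tested, with 3 and 7 UMIs in the Grhl3-/- and 18 and 6 in the WT libraries.

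Both readable type II members rose as well. Krt71 stood at 23.5 and 11.9 CPM in the Grhl3-/- and at 7.03 and 4.06 CPM in the WT libraries (log2 change 1.77, SE 0.42, edgeR adjusted p = 0.0105), and Krt73 at 11.8 and 12.6 against 7.07 and 6.39 CPM (0.95, SE 0.31, edgeR adjusted p = 0.0396). At a mitochondrial limit of 5% Krt73 missed the threshold (1.09, edgeR adjusted p = 0.0504) and the other 3 members passed. Krt72, with 5 and 0 UMIs against 1 and 4, did not pass (-0.33, adjusted p = 0.877 by edgeR). These calls rest on both libraries of each genotype. By edgeR 1 member stayed past the threshold without Grhl3-/- replicate 1 (Krt27), 2 without Grhl3-/- replicate 2 (Krt25 and Krt71), 3 without WT replicate 1 (Krt25, Krt27 and Krt71) and 0 without WT replicate 2, where every fold change kept its sign and adjusted p was 0.0628 to 0.148 for the 4 genes.

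Within P0 HF-like cells the genotype difference was smaller and 2 of 5 members passed, where 17.5% of all genes were higher and 32.8% changed. Krt27 stood at 36.0 and 39.7 CPM in the Grhl3-/- and at 28.7 and 25.4 CPM in the WT HF-like cells (log2 change 0.62, SE 0.12, edgeR adjusted p = 0.00207). Krt71 stood at 38.1 and 16.8 against 13.5 and 7.15 CPM (1.54, SE 0.33, edgeR adjusted p = 0.00318). For both genes the lower Grhl3-/- library was above the higher WT library. Krt27 was past the threshold under every alternative tried, whereas without Grhl3-/- replicate 1, which had the highest Krt71 level, the change of Krt71 was 0.76 and missed it (edgeR adjusted p = 0.0766).

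The other members differed less in HF-like cells. Krt25 overlapped, at 34.1 and 23.8 CPM against 25.8 and 15.1 (log2 change 0.63, SE 0.24, edgeR adjusted p = 0.0604), and ran from 0.22 without WT replicate 2 (adjusted p = 0.451) to 1.0 without WT replicate 1, where it passed (adjusted p = 0.00678); without Grhl3-/- replicate 1 it was 0.27 (adjusted p = 0.496). Krt28 stood at 161.3 and 163.5 against 129.4 and 126.5 CPM (0.48, SE 0.24, edgeR adjusted p = 0.145), and passed with only the P0 groups in the fit (0.48, adjusted p = 0.0104). Krt73 stood at 10.8 and 12.5 against 10.7 and 10.3 CPM, nearly level (0.28, SE 0.22, edgeR adjusted p = 0.356). HF-like cells were 46.4% and 51.1% of the cells in the Grhl3-/- and 43.1% and 40.2% in the WT libraries, and the 4 HF-like clusters richest in the members were 38.1% and 40.7% against 25.2% and 24.4% of the HF-like cells. When cells were clustered without integrating the libraries, Krt25 and Krt73 passed too (1.07 and 1.35, edgeR adjusted p of 0.00183 and 0.00142).

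**Figure D5:**
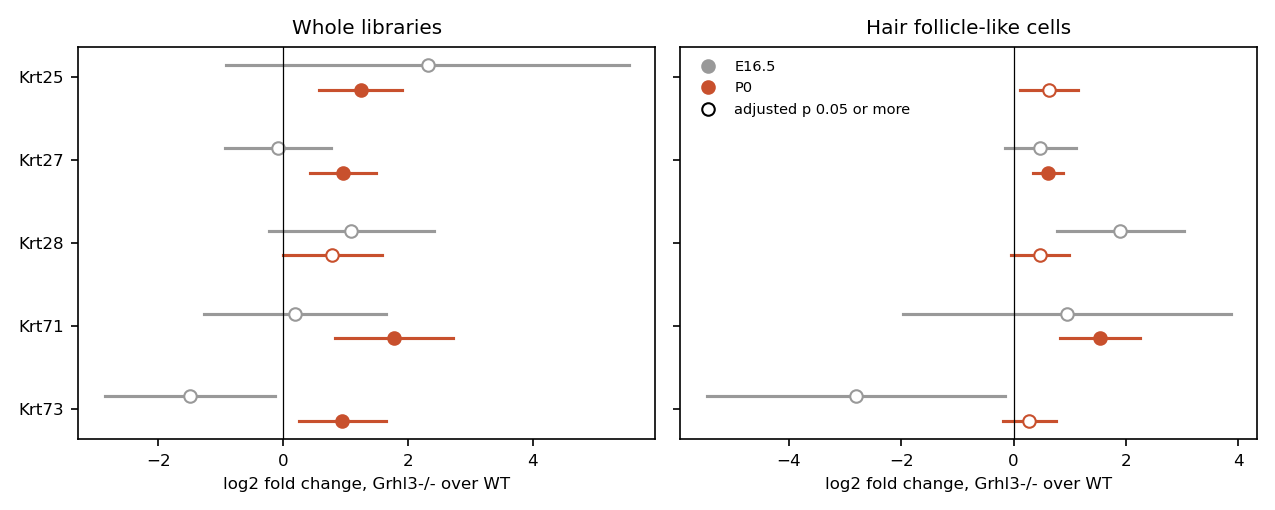
Log2 fold change of Grhl3-/- over WT for the 5 readable members at E16.5 (grey) and P0 (orange), in whole libraries (left) and HF-like cells (right), with 95% intervals from the edgeR fit; filled points passed the adjusted threshold and Krt25 at E16.5 in HF-like cells is left out at 0 UMIs. At P0 all 5 points lie above 0 in both panels, and Krt25, Krt27, Krt71 and Krt73 are filled on the left but only Krt27 and Krt71 on the right.

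The share of cells rich in the keratins showed the same direction. Cells with 10 or more UMIs were 386 of 9157 (4.22%, exact 95% binomial interval 3.81% to 4.65%) and 383 of 7283 (5.26%, 4.76% to 5.80%) in the Grhl3-/- libraries, so the group means were 4.74% ± 0.738 (SD, n = 2) against 2.28% ± 0.636 in the WT. Their median was 14 UMIs in all 4 libraries. Among them, cells with all 5 readable members numbered 49 of 386 and 37 of 383 in the Grhl3-/- and 7 of 124 and 10 of 180 in the WT libraries. Their counts were not thinned. The median depth of the rich cells was 12512 and 13039 UMIs in Grhl3-/- and 9799 and 12344 in the WT. Over all kept cells Krt71 gave 13.6% and 7.16% of the 7-keratin UMIs in the Grhl3-/- and 6.89% and 4.74% in the WT libraries. In the rich cells it gave 18.6% and 10.1% against 7.3% and 3.47%. In both the groups did not overlap but the Grhl3-/- libraries lay far apart. With 2 libraries a side the smallest two-sided p of an exact permutation test is 0.33, and no test was made.

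At E16.5 and E14.5 no member passed the test between genotypes. At E16.5 in whole libraries 0 of 6 members passed in edgeR, where 1.83% of all genes changed, with 1 at an unadjusted p under 0.05 (Krt73), and 0 passed in DESeq2. Members had entered through the P0 libraries, and with only the E16.5 groups 3 were tested (Krt27, Krt28 and Krt71), so the test says little of the others. Krt73 had 3 and 6 UMIs in the Grhl3-/- and 11 and 19 in the WT libraries (log2 change -1.50, SE 0.61, edgeR adjusted p = 0.289). They lay in 1 and 2 Grhl3-/- cells and in 5 and 6 WT cells. Krt28 had 15 and 89 UMIs against 31 and 26 (1.09, SE 0.59, adjusted p = 0.476), a value set by the libraries left in, at -0.64 without Grhl3-/- replicate 2 and at 1.83 without Grhl3-/- replicate 1, where it passed (edgeR adjusted p = 0.0330). In that replicate 2, 1 HF-like cell held 32 Krt28 UMIs. Krt27 had 17 and 22 against 29 and 20 UMIs (-0.09, SE 0.38) and Krt71 had 17 and 17 against 17 and 18 (0.19, SE 0.65).

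In E16.5 HF-like cells 0 of 5 members passed in edgeR, where 0.0892% of all genes changed, with 2 at an unadjusted p under 0.05 (Krt28 and Krt73), and 0 passed in DESeq2. Krt25, at 0 UMIs, could not pass, and with only the E16.5 groups 2 were tested (Krt27 and Krt28). Krt28 stood at 8.01 and 42.9 CPM against 8.11 and 5.36 (log2 change 1.90, SE 0.53, edgeR adjusted p = 0.721), and passed without Grhl3-/- replicate 1 (2.63). At E14.5 0 of 6 passed in edgeR, where 0.303% of all genes changed, with 1 at an unadjusted p under 0.05 (Krt73, 0 and 2 UMIs in the libraries labelled Grhl3-/- against 2 and 9), and 0 passed in DESeq2. Only Krt28 was tested when the fit held the E14.5 groups alone, and at 0 to 15 UMIs per library and member the 0 says little.

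The genotype difference of Krt73 went from negative at E16.5 to positive at P0. It was the only 1 of 6 members to pass the test between the ages, where 11.6% of all genes were higher and 19.5% changed. Its log2 change in Grhl3-/- over WT was -1.50 at E16.5 and 0.95 at P0. The E16.5 value rests on 1 and 2 Grhl3-/- and 5 and 6 WT cells with a UMI. The difference of the log2 changes was 2.45 (SE 0.68, edgeR adjusted p = 0.0340). It stood at 1.05 (SE 0.44, adjusted p = 0.130) for Krt27, at 1.58 (SE 0.77, adjusted p = 0.180) for Krt71 and at -0.30 (SE 0.68, adjusted p = 0.796) for Krt28, all by edgeR. The Krt73 result rests on 3 and 6 E16.5 UMIs in the Grhl3-/- libraries and ran from 1.86 to 2.98 when 1 library was left out, past the threshold only where that library was E16.5 WT replicate 1. At a mitochondrial limit of 5% it was 1.92 and missed the threshold (edgeR adjusted p = 0.148).

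In P0 HF-like cells, where 17.5% of all genes were higher and 32.8% changed, 0 of 7 genes for IRS structure and cross-linking were higher and 2 were lower, namely Ctsl (log2 change -1.15, SE 0.12) and Casp14, a protease of cornifying cells (-1.27, SE 0.38), with a list median of -0.15. Tchh stood at 0.37 (SE 0.25, edgeR adjusted p = 0.283). In whole libraries, where 34.1% of all genes changed, 4 of 8 were lower, namely Tchh (-0.67), Tgm1 (-1.60), Ctsl (-0.77) and Casp14 (-2.88), and 0 were higher, with a median of -0.72 against -0.0026 over all genes tested. The IFE-like cells, which also use Tgm1 and Casp14, are part of those sums.

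Of 16 follicle transcription factors in P0 HF-like cells, 3 were higher and 5 lower, with a median log2 change of -0.02. The 3 of 16 are near the 17.5% of all genes that were higher, while 2056 of the 13454 genes tested were lower. Cux1, Hoxc13, Sox9, Lhx2 and Gata3 were also among the markers that named the HF-like class, so their values are not independent of the choice of cells. The higher were Cux1 (log2 change 0.54), Msx1 (0.73) and Trps1 (0.56), and the lower were Hoxc13 (-0.51), Prdm1 (-0.76), Sox9 (-0.81), Lhx2 (-0.34) and Runx1 (-0.99). Gata3, a regulator of the IRS lineage, stood at -0.16 (SE 0.16, edgeR adjusted p = 0.465). Of 5 hair shaft keratins 4 were lower, namely Krt31 (-2.06), Krt32 (-0.96), Krt33a (-2.35) and Krt34 (-2.27), so the median of that list was -2.06 while the median of all genes tested was -0.0029. Among 9 keratins of the outer root sheath and companion layer Krt6a (1.51) and Krt6b (4.05) were higher, and Krt14, Krt15, Krt16 and Krt79 were lower, by -0.50 to -1.32. Krt14 and Krt15 were also markers that named the IFE-like class, and Krt79 one that named an upper follicle-like class. Their values are thus not independent of the choice of cells either. Krt6a and Krt6b share reads with near-identical copies and are uncertain as single genes.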

How the data were processed

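The deposited files held raw UMI counts per gene and cell, made by the authors with Cell Ranger against mm10 (version 1.3.1 in the submitters' processing notes; the study's methods name another). Cells were kept with 600 to 4800 detected genes in the embryos or 900 to 7700 at P0 and with no more than 10% of mitochondrial UMIs, leaving 5058 to 9157 per library with a median of 7448 to 9976 UMIs. Each replicate was 1 mouse by the study's methods. Cells were clustered per age in Seurat 5.3.0 without the 7 members (3000 variable genes, 30 principal components, resolution 1.0, anchor integration by canonical correlation). A cluster was named from marker lists at a mean score of at least 0.4, a limit set after the scores were seen, with at least 3 detected markers, no other class with more markers among its 10 leading genes, and no leading adipocyte, B cell or basophil genes (added after seeing them). No doublet caller was run.

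Counts summed per library, over all kept cells or over HF-like cells, were tested with edgeR 4.0.16 in R 4.3.3 (TMM, low-count filter, quasi-likelihood test, Benjamini-Hochberg adjustment over all genes tested, threshold 0.05). The 12 libraries without the v1 title entered 1 fit for whole libraries, with 17187 genes, and the 8 of E16.5 and P0 another for HF-like cells, with 13454 genes, since a group needed 20 such cells. DESeq2 1.42.0 was an alternative. The scripts were tested on simulated data. Shares and correlations were computed in Python 3.11.15 with numpy 2.4.6, scipy 1.17.1 and pandas 2.3.3, and motifs were searched in RefSeq promoters. The genes named are the 7 members, the genes of 4 lists by their calls, and the 10 genes with the highest median correlation with the summed members over the 4 P0 libraries, of which 1 is not reported here; leading genes name clusters. Genes contrasted between the low and high keratin cells were chosen from the lists after their values were seen. The members and lists were chosen with earlier results of these data known.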

Additional observations from a re-analysis of the deposited data

Results flagged for a closer look

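The genotype difference of Krt73 differed between the ages by the test of that difference, a call that most left-out libraries ended. Its log2 change in Grhl3-/- over WT whole libraries was -1.50 at E16.5 and 0.95 at P0, and the difference of the 2 was 2.447 (edgeR adjusted p = 0.0340). It stayed past the threshold in 8 of 16 alternatives, among them 1 of the 8 that left out a library (1.86 to 2.98, edgeR adjusted p 0.0315 to 0.157), and missed it at a mitochondrial limit of 5% (1.92, edgeR adjusted p = 0.148). In counts, Krt73 had 3 and 6 UMIs in the Grhl3-/- and 11 and 19 in the WT libraries at E16.5, and 1248 and 1133 against 474 and 496 at P0. The E16.5 UMIs lay in 1 and 2 cells of the Grhl3-/- and in 5 and 6 cells of the WT libraries. A single cell held up to 3 and 5 of them in Grhl3-/- and up to 6 and 9 in the WT. In whole libraries the genotypes did not overlap at either age and their order turned. Most of the E16.5 UMIs (25 of 39) were in the Krt79-led cluster and not in HF-like cells, and in that cluster the genotypes overlapped, at 4.03 and 2.78 CPM in the WT and 2.46 and 5.32 CPM in Grhl3-/-. The class that holds this cluster, named IFE-like by score, had 424 and 377 cells in the E16.5 Grhl3-/- and 1242 and 1482 in the WT libraries; its part in the difference was not tested.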

How the results depend on the processing

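The members' fold changes were recomputed 329 times over 27 changes. In 291 the direction and the side of the threshold stayed, in 26 the call was lost, in 11 gained and in 1 the sign turned, which was Krt28 at E16.5 in whole libraries, from -0.64 without Grhl3-/- replicate 2 to 1.83 without replicate 1. The cause was not tested.

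Members past the threshold, with 1 library left out: 0 to 3 at P0 in whole libraries (4 in full), 0 to 1 at E16.5, 1 in each case from E14.5 to E16.5 in WT (2 in full), 0 to 1 for the difference between ages (1 in full), 1 to 3 in P0 HF-like cells (2 in full) and 0 to 1 in E16.5 HF-like cells. The difference between ages gave 2 members with only the groups compared and 0 at a mitochondrial limit of 5%. P0 HF-like cells gave 4 with no low-count filter (3 higher and Krt26 lower, at -2.27) and 4 without integration (all higher), and E16.5 HF-like cells gave 1 with no filter.

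Counts over all genes with 1 library left out ran from 3538 to 4955 at P0 (5857 in full), from 10 to 203 at E16.5 (315), from 8 to 333 at E14.5 (52), from 1636 to 2521 for WT E16.5 against E14.5 (4001) and from 1600 to 3240 for the difference between ages (3359). In HF-like cells they ran from 2388 to 4104 for genotype at P0 (4412), from 3 to 11 at E16.5 (12), from 3837 to 5280 for WT P0 against E16.5 (5786) and from 1708 to 2551 for Grhl3-/- (3611). With only the groups compared the counts were 3899 at P0, 1 at E14.5 and 43 in E16.5 HF-like cells. With no filter they were 583 at E16.5, 93 at E14.5 and 48 in E16.5 HF-like cells, with DESeq2 936, 402 and 23, and at a mitochondrial limit of 5% the last was 7. DESeq2 called 0 members in the genotype tests at E16.5 and E14.5.

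A replicate block gave 66 genes at E16.5 and 3 at E14.5; the number was only shared (same-number deviations correlated at 0.227, -0.409 and -0.0966 at E14.5, E16.5 and P0, and at -0.0877 and -0.0948 in HF-like cells). Crossing the block at E16.5, chosen after seeing the data, gave 639. With the block 3 members passed for WT E16.5 against E14.5 and 3 in P0 HF-like cells, and the other member counts did not change.

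The share of keratin-rich cells moved with its limit. In the WT it was 6.01% at 5 UMIs, 0.285% at 30 UMIs, 0.0971% at 0.5% of a cell's UMIs and 0.254% after thinning, against 11.9%, 0.672%, 0.234% and 0.576% in Grhl3-/-. The summed Grhl3-/- level was 165.1 CPM at a mitochondrial limit of 5%. Without thinning 82.5% of Krt25 cells had Krt28 and 50.2% of Krt73 cells had Krt25. Krt28 gave 57.4% (WT) and 48.1% (Grhl3-/-) of the 7-keratin UMIs in keratin-rich cells, against 62.8% and 56.0% in all cells. After thinning r was 0.297 for Krt27 with Krt28 and 0.348 for Krt25 with Krt73. Krt26 and Krt72, at 18 UMIs or fewer per library, were too shallow to describe.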

Other observations

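The P0 WT library of the v1 title had 61 of 5058 cells (1.21%, exact 95% binomial interval 0.924% to 1.55%) with 10 or more UMIs of the 7 keratins, below both other P0 WT libraries. Krt28 gave 66.8% of its UMIs of the 7 keratins, Krt73 11.5% and Krt25 3.03%, whereas Krt25 gave 12% and 8.67% in the other WT libraries. Its title and its protocol text name different chemistries. Its cell barcodes had another length than those of the other 12 libraries. Any effect of chemistry cannot be told apart from the animal.

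Among keratin-rich P0 cells, those with 60% or more of their UMIs of the 7 keratins from Krt25, Krt71 and Krt73 also stood higher than those with under 20% for Krt17, a keratin of the outer root sheath and companion layer, at 7741 and 8548 against 998.1 and 965.9 CPM in the WT and at 3726 and 3078 against 502.8 and 552.8 CPM in Grhl3-/-. Other keratins of that list were lower in the former cells of some libraries. Among them were Krt5 in WT replicate 1 (770.6 against 938.5 CPM) and Krt75 in WT replicate 2 (4.64 against 20.6 CPM). Krt16 and Krt6a were lower in Grhl3-/- replicate 2, at 6.99 against 14.1 and 5.60 against 26.6 CPM. Krt5, Krt75 and Krt16 were higher in the libraries not named for them. Sox9, a transcription factor of outer root sheath cells, stood at 356.2 and 167 against 59.5 and 24.0 CPM in the WT and at 106 and 95.1 against 18.3 and 24.6 CPM in Grhl3-/-. Krt35 of the hair shaft ran the other way in 3 libraries, at 27.1, 18.6 and 41.7 against 146.7, 258.2 and 167.5 CPM, but not in Grhl3-/- replicate 2, at 166.4 against 89.2 CPM. Krt32, another keratin of the hair shaft, was higher in the former cells in every library, at 81.3 and 32.5 against 7.72 and 6.86 CPM in the WT and at 14.8 and 6.99 against 3.05 and 2.30 CPM in Grhl3-/-, on 5 to 21 UMIs each. Gata3 stood at 638.9 and 366.4 against 443.4 and 383.3 CPM in the WT and at 483.3 and 616.8 against 264.5 and 362 CPM in Grhl3-/-, higher in 3 of 4 libraries. These are descriptions of cells chosen on the members, with no test.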
